A study of Mus musculus with 9 samples.

Results

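The genes described here encode the subunits of NOX2, the phagocyte NADPH oxidase, and other NADPH oxidases. They were 9 genes chosen by name out of 52550 in the expression table, namely *Ncf1*, *Ncf4*, *Cyba*, *Cybb*, *Rac1* and *Rac2* for NOX2, and *Nox1*, *Nox4* and *Noxo1* for other oxidases. All 9 were in the table, and 8 had counts.

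Plasmacytoid dendritic cells (pDCs), which make large amounts of type I IFN, were sorted from spleens of C57BL/6 mice aged 10 to 12 weeks. The mice were WT (G/G) or carried a knocked-in *Ncf1* allele on 1 (G/A) or both (A/A) chromosomes, with 3 samples of each genotype. All 9 samples received R848, an agonist of TLR7/-8, at 10 μg/mL for 12 hours in culture. The levels below come from A/A replicate 1. As the remaining 8 samples were not analysed here, the levels have no replicate error and no genotypes were compared.

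NOX2 moves electrons from NADPH across a membrane to oxygen and so makes superoxide, either outside the cell or inside phagosomes and endosomes. Its membrane core is a heterodimer of the catalytic chain gp91phox, encoded by *Cybb*, and p22phox, encoded by *Cyba*. The core is inactive until cytosolic proteins, among them p47phox (*Ncf1*) and p40phox (*Ncf4*), and a GTP-bound Rac protein join it, a step that the phosphorylation of p47phox sets off.

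The values of the library were whole multiples of a step of 1.19, within 0.01 of a count for 100% of the genes above 0, and dividing by this step gave 31408298 counts over 17664 genes. Counts of 1 and 2 were the most frequent, at 977 and 418 genes, but above them each multiple of 4 up to 24 held more genes than the counts next to it, as with 405 genes at 4 against 306 at 3 and 307 at 5. It is not known how many units of the count a read pair adds, so 4 units were taken as 1 pair for every interval. This made the intervals about 2.0 times as wide as with 1 unit a read, and wider still at low counts. The half-width was 0.747 CPM against 0.353 CPM for *Noxo1*, and 0.609 CPM against 0.272 CPM for *Duoxa2*, a gene described below. Levels within the library are given as CPM, the count per 1000000 counts, with Wilson 95% confidence intervals. Levels of different genes are compared as TPM, for which the count was divided by the length of the gene's annotated exons and scaled to a sum of 1000000. The intervals cover counting error only. PCR copies of a molecule are counted again where there are no molecular identifiers, so the intervals may be too narrow even for that error. All 37 mitochondrial genes were listed at 0, so a gene without counts is described as listed at 0 and not as absent.

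The label of the cells was compared with marker genes. All 11 pDC markers had counts, with a summed level of 10293 CPM. On the TPM scale *Ly6d* was the highest of them at 6001, followed by *Bst2* at 4774, *Spib* at 2076 and *Irf8*, a transcription factor of pDCs and other myeloid cells, at 1094. The lowest were *Runx2* at 55.7, *Pacsin1* at 35.3 and *Tcf4* at 34.0, the last with 358 CPM over 27.4 kb of exons. These were in the range of some markers of other cells given below, such as *S100a8* at 55.0 and *Zbtb46* at 32.3. The median of the 11 was 251. According to the methods, cells with intermediate CD11c that were positive for SiglecH and PDCA1 were sorted. Of the genes of these proteins, *Bst2* (PDCA1) had 1657 CPM, *Siglech* 374 CPM and *Itgax* (CD11c) 38.5 CPM. The methods of the study describe female mice. In this library the Y-linked genes *Ddx3y*, *Eif2s3y*, *Kdm5d* and *Uty* had 102, 86.1, 27.0 and 19.0 CPM, and *Xist*, the RNA that silences an X chromosome in female cells, was listed at 0. These values go against the stated sex, and *Cybb* and *Nox1* are X-linked. The table does not separate alleles, so the genotype label could not be checked, and A/A is the library's label throughout.

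Both genes of the membrane core were among the genes with the highest levels in the library. *Cyba* (ENSMUSG00000006519.11, GRCm38 chr8:122424776-122432930, minus strand) had 53970 counts, or 1718 CPM (95% CI, 1690 to 1748). *Cybb* (ENSMUSG00000015340.10, chrX:9435252-9487771, minus strand) had 82831 counts, or 2637 CPM (95% CI, 2602 to 2673). The order of the pair depended on length. The exons of *Cybb* covered 5.81 kb and those of *Cyba* 1.04 kb, and on the TPM scale *Cyba* stood at 4302 (95% CI, 4230 to 4375) and *Cybb* at 1181 (95% CI, 1165 to 1197). The ratio of *Cybb* to *Cyba* was 0.275 per kilobase of exon (exact 95% CI, 0.269 to 0.281), 0.517 per kilobase of coding sequence and 1.53 in counts, where the order was reversed. The protein p22phox also serves as the partner of NOX1, NOX3 and NOX4. Among all genes with counts, *Cyba* stood at percentile 99.9 and *Cybb* at percentile 99.4. The median level of these genes was 4.94 TPM, and 8.42 TPM among those with at least 10 counts. With coding length, which only genes with a coding sequence have, the median was 11.6 TPM. Among protein-coding genes with counts it was 9.96 TPM, and 11.6 TPM with coding length.

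The cytosolic subunits *Ncf1* and *Ncf4* did not share a level. *Ncf1* (ENSMUSG00000015950.13, chr5:134220053-134229625, minus strand), which encodes the organizer p47phox and carries the knocked-in change, had 33881 counts. Its level was 1079 CPM (95% CI, 1056 to 1102), or 766 TPM (95% CI, 750 to 782), at percentile 99.1 of the genes with counts. *Ncf4* (ENSMUSG00000071715.11, chr15:78244801-78262580, plus strand), whose product p40phox binds phosphatidylinositol 3-phosphate on phagosomes and endosomes, had 1455 counts, 46.3 CPM (95% CI, 41.8 to 51.4) and 59.7 TPM (95% CI, 53.9 to 66.1), at percentile 88.0. It was the lowest of the 6 NOX2 genes.

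Per kilobase of exon, the level of *Ncf1* was 0.649 times that of *Cybb* (exact 95% CI, 0.632 to 0.665). The same ratio was 12.8 to *Ncf4* (exact 95% CI, 11.6 to 14.3) and 0.178 to *Cyba* (exact 95% CI, 0.173 to 0.183). The transcript of the organizer was thus closer in level to those of the membrane core than to that of *Ncf4*. The size of these ratios rested on the length used. In counts, *Ncf1* to *Ncf4* was 23.3, *Ncf1* to *Cybb* 0.409 and *Ncf1* to *Cyba* 0.628. Per kilobase of coding sequence, *Ncf1* to *Cyba* was 0.290.

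Rac proteins are small GTPases that form part of the active complex, and *Rac2* is largely restricted to blood cells whereas *Rac1* is expressed widely. *Rac2* (ENSMUSG00000033220.6, chr15:78559169-78572783, minus strand) had 28988 counts, 923 CPM (95% CI, 902 to 944) and 774 TPM (95% CI, 756 to 792). This interval overlapped that of *Ncf1*, and the order of *Rac2* and *Ncf1* also turned with the length used. With the longest transcript, *Ncf1* stood at 780 TPM and *Rac2* at 633 TPM, and with coding length *Ncf1* stood at 840.2 TPM and *Rac2* at 1554 TPM. *Rac1* (ENSMUSG00000001847.14, chr5:143503634-143528036, minus strand) had 10791 counts, 344 CPM (95% CI, 331 to 357) and 199 TPM (95% CI, 191 to 206), at percentile 96.1. The ratio of *Rac2* to *Rac1* was 3.89 per kilobase of exon (exact 95% CI, 3.72 to 4.07). With all counts kept and only exon bases outside the exons of other genes used as the length, it was 1.89. In counts it was 2.69. With coding length, the order of *Rac2* and *Cybb*, at 1498 TPM, was reversed as well, and *Rac1* stood at 527 TPM. *Rac3*, the remaining gene of the family, had 2.63 TPM (95% CI, 1.39 to 4.72). The Rac proteins are close in sequence, with 176 of 192 residues identical between RAC1 and RAC2, but no stretch of 150 bases in the annotated transcripts of *Rac1* or *Rac2* was identical to a transcript of another gene on the same strand.

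The other oxidases and their partners were listed at 0 or lay below the median of all genes with counts. *Nox1* (ENSMUSG00000031257.14, chrX:134086421-134221956, minus strand), which encodes the catalytic chain of the colon epithelium's oxidase, had 120 counts, 3.82 CPM (95% CI, 2.68 to 5.45) and 3.01 TPM (95% CI, 2.11 to 4.29), at percentile 41.8. *Noxo1* (ENSMUSG00000019320.13, chr17:24696234-24700529, plus strand), the organizer that takes the place of p47phox beside NOX1, had 31 counts, 0.987 CPM (95% CI, 0.516 to 2.01) and 0.852 TPM (95% CI, 0.446 to 1.74). *Nox4* (ENSMUSG00000030562.17, chr7:87246096-87398710), an oxidase of kidney and vessel wall that works without cytosolic organizers, was listed at 0. From the rest of this list, *Nox3* of the inner ear, *Noxa1*, the activator of NOX1, and *Duox1*, *Duox2* and *Duoxa1* of the dual oxidases were also listed at 0. *Duoxa2*, a maturation factor of DUOX2, had 18 counts and 0.936 TPM (95% CI, 0.444 to 2.44). In TPM the interval of *Duoxa2* overlapped those of *Nox1* and *Noxo1*, so its place among them could not be told, whereas the intervals of *Nox1* and *Noxo1* did not overlap. With non-overlapped exon bases as the length and all counts kept, *Noxo1* stood at 1.78 TPM and *Nox1* at 2.11 TPM. With the longest transcript they stood at 0.919 and 3.10 TPM, and with coding length at 0.916 and 2.09 TPM. *Nox1* was the higher in each of these settings, but the size of the gap depended on the length used.

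**Figure D1:**
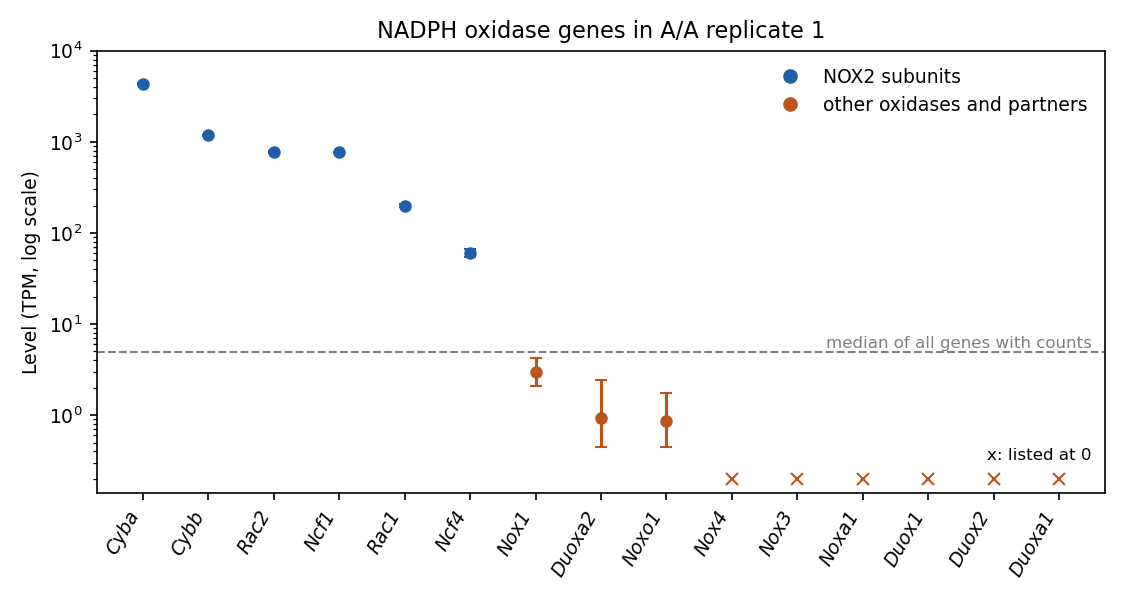
Level of each NADPH oxidase gene in A/A replicate 1, in TPM on a log axis, with NOX2 subunits in blue and other oxidases and their partners in orange. Points are single values with 95% counting intervals, crosses are genes listed at 0 and drawn at an arbitrary height, and the dashed line is the median of all genes with counts, 4.94 TPM. All 6 NOX2 genes lie above that line, from 59.7 TPM for *Ncf4* to 4302 TPM for *Cyba*, and the 3 other genes with counts lie below it.

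In the functional pairs compared, a catalytic chain and an organizer, the NOX2 gene was far above its counterpart. The catalytic chain *Cybb* stood at 393 times the level of *Nox1* per kilobase of exon (exact 95% CI, 275 to 583), and the organizer *Ncf1* at 899 times that of *Noxo1* (exact 95% CI, 442 to 2018). *Cybb* to *Nox1* was 716 per kilobase of coding sequence and 690.3 in counts. *Ncf1* to *Noxo1* was 299 when all counts were kept and only exon bases outside the exons of other genes were used as the length. Of the NOX2 genes, 6 of 6 had counts, with a median of 769.8 TPM, or 1169 TPM with coding length. Of the other oxidases and their partners, 3 of 9 had counts, with a median of 0.936 TPM over those 3. Over the whole table, 33.6% of the genes had counts, and 55.9% of the protein-coding genes did. The summed level was 6747 CPM for NOX2, or 0.675% of all counts, and 5.38 CPM for the others. The proteins of these pairs are related, since the residues of NOX2 and NOX1 were identical at 56.4% of aligned positions, those of NOX2 and NOX4 at 42.4% and those of p47phox and NOXO1 at 30.4%. No transcript stretch of 150 bases was shared between any of the 9 genes and another gene on the same strand.

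Reads of opposite-strand genes can reach a count where strand was not used, and the use of strand was not given in the sources used here. The exons of *Gtf2ird2*, at 11.4 TPM, covered 11.1% of the exon bases of *Ncf1*, all of it away from the exon of codon 90. For *Rac1* the overlap was 51.4% of exon bases, with *Daglb* at 14.7 TPM. For *Noxo1* it was 70.4%, with *Tbl3* at 8.65 TPM, a level above that of *Noxo1* itself. *Cstf2*, at 12.1 TPM, covered 12.1% of *Nox1*. *Cyba*, *Cybb*, *Rac2* and *Ncf4* had no such overlap. Whether counts of *Noxo1*, *Nox1* or *Rac1* came from the opposite strand was not tested.

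**Figure D2:**
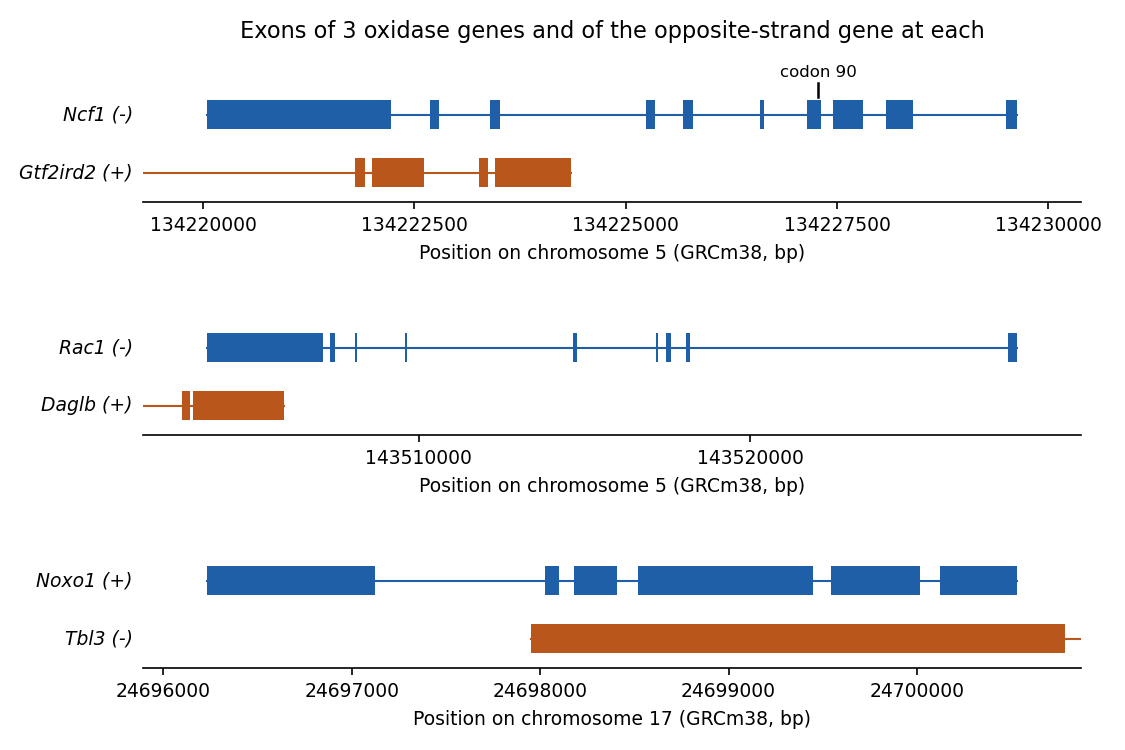
Annotated exons (boxes, merged over transcripts) of *Ncf1*, *Rac1* and *Noxo1* in blue and of the opposite-strand gene at each in orange, against position in bp on GRCm38. The shared exon bases make up 11.1% of *Ncf1*, 51.4% of *Rac1* and 70.4% of *Noxo1*, and codon 90 of *Ncf1* lies outside the exons of *Gtf2ird2*.

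The knocked-in change lies in the PX domain of p47phox, which binds phosphoinositides of membranes. In the GRCm38 reference, codon 90 of *Ncf1* is in exon 4 of 11, at positions 134227274 to 134227276 of chromosome 5, and encodes arginine. A G-to-A change fits this codon at 1 base, G269A counted from the A of the start codon, and gives R90H. The donor DNA described in the study's methods differs from the reference at further bases beside this codon. Which of these bases the knocked-in allele carries was not checked, and the sequence of the allele is not shown. The reference sequence around the codon is shown beside that of *Noxo1* and *Ncf4*, whose products also hold a PX domain, to place the changed residue in the family. The sequences are coding strand, taken from GENCODE M21 transcripts, with the codon aligned to codon 90 in capitals. They lie at chr5:134227244-134227306 (minus strand), chr17:24698968-24699030 (plus strand, exon 4 of 8 coding exons, codon 93) and chr15:78253308-78254789 (plus strand, spliced, running from exon 4 of 10 into the next, codon 105).
Ncf1: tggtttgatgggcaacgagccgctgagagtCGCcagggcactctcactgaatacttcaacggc
Noxo1: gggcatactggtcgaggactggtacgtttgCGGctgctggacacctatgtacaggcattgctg
Ncf4: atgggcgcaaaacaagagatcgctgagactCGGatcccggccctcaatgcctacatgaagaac
All 3 capitalized codons encode arginine, with CGC in *Ncf1* and CGG in *Noxo1* and *Ncf4*. In the alignment within 40 residues on either side, p47phox shared 30 of 79 aligned residues with NOXO1 (38.0%) and 22 of 80 with p40phox (27.5%). Of the 3 genes with this arginine, *Ncf1* stood at 766 TPM, *Ncf4* at 59.7 TPM and *Noxo1* at 0.852 TPM.

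Of the 20 genes listed for the maturation, priming and Rac control of NOX2, 20 had counts, with a median of 71.4 TPM beside 4.94 TPM for all genes with counts and 9.96 TPM for protein-coding genes with counts. The highest were *Arhgdia* at 1250 TPM and *Arhgdib* at 980 TPM, which encode GDP dissociation inhibitors that hold Rac proteins in the cytosol. They were followed by the kinase gene *Prkcd* at 412 TPM, whose product phosphorylates p47phox, *Vav1* at 236 TPM, an exchange factor for Rac, and *Hvcn1* at 165 TPM, the proton channel that balances the charge moved by NOX2. Exons of opposite-strand genes covered 44.2% of the exon bases of *Hvcn1*. The lowest, all below the median of all genes with counts, were *Tiam1*, another Rac exchange factor, at 0.907 TPM, *Rac3* at 2.63 TPM and *Pik3cg*, a PI3K catalytic subunit, at 2.63 TPM.

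The electrons that NOX2 uses come from NADPH, which the pentose phosphate pathway and a few other enzymes regenerate. All 11 genes of this list had counts, with a median of 71.9 TPM. *Taldo1*, encoding transaldolase, was the highest at 632 TPM, followed by *G6pdx*, the enzyme at the entry of the pathway, at 158 TPM, *Nadk*, which makes NADP from NAD, at 93.4 TPM, *Tkt* at 85.4 TPM and *Pgls* at 77.8 TPM. The lowest were *Rpia* at 0.216 TPM, *Me1* at 1.12 TPM and *H6pd*, the enzyme of the endoplasmic reticulum, at 4.74 TPM.

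The v-ATPase pumps protons into endosomes, where the superoxide made by NOX2 takes protons up. Of its 25 genes, 19 had counts, with a median of 146.7 TPM, below the median of 769.8 TPM of the NOX2 genes. The highest were *Atp6v1g1* at 582 TPM, *Atp6ap2* at 439 TPM, *Atp6v0b* at 422 TPM, *Atp6v0c* at 369 TPM and *Atp6v1f* at 331 TPM. The 6 genes listed at 0 were *Atp6v0a4*, *Atp6v0e2*, *Atp6v1b1*, *Atp6v1c2*, *Atp6v1e2* and *Atp6v1g3*, several of which are isoforms of kidney or testis. The lowest with counts were *Atp6v1g2* at 0.594 TPM, *Atp6v0d2* at 12.3 TPM and *Atp6v0a2* at 27.6 TPM. For reference, *Tlr7* stood at 131 TPM, *Tlr9* at 29.4 TPM and *Actb* at 16029 TPM. *Gapdh*, chosen after its value was seen, stood at 116 TPM, and 81 of 83 ribosomal protein genes had counts, with a median of 108.7 TPM. Of the NOX2 genes, *Cyba*, *Cybb*, *Ncf1*, *Rac2* and *Rac1* were each above *Tlr7*, *Gapdh* and that median, and *Ncf4* lay between *Tlr9* and *Tlr7*. All of the NOX2 genes lay below *Actb*. *Gapdh* had 184 CPM against 16509 CPM for *Actb*, and the ribosomal protein genes together held 0.827% of all counts. How reads that match several places in the genome were counted is not known here. Whether this lowered *Gapdh* or the ribosomal protein genes was not tested, so their order against the NOX2 genes holds for these values only.

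**Figure D3:**
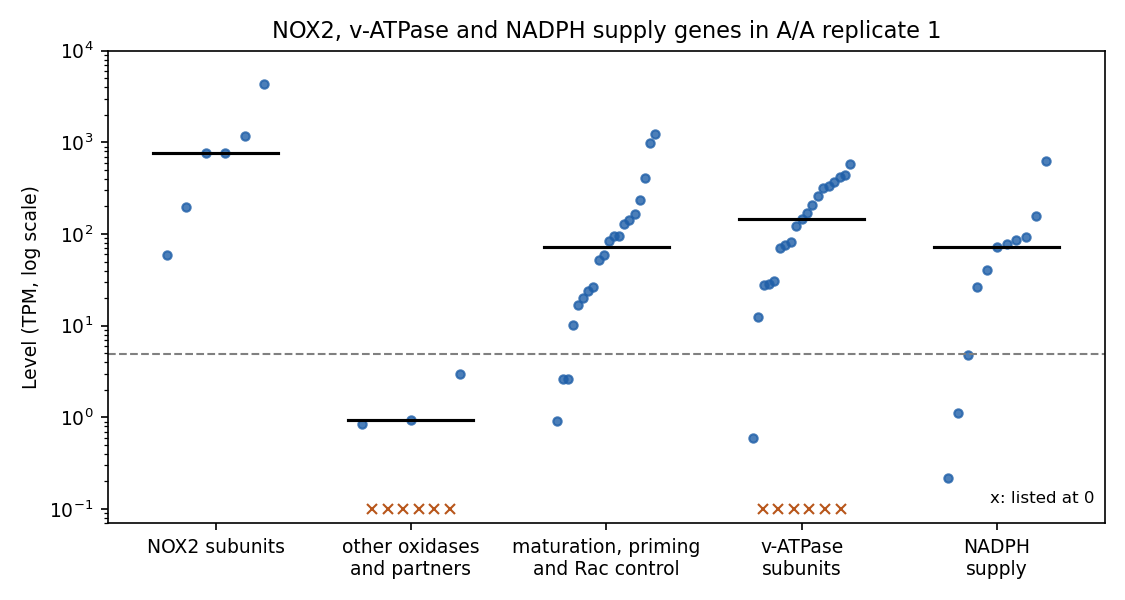
Levels in A/A replicate 1 of the genes of 5 lists, in TPM on a log axis, with 1 point for each gene with counts, a black bar at the median of those genes and crosses for genes listed at 0, drawn at an arbitrary height. The dashed line is the median of all genes with counts, 4.94 TPM. The medians are 769.8 TPM for NOX2 subunits, 0.936 TPM for other oxidases and their partners, 71.4 TPM for maturation, priming and Rac control, 146.7 TPM for the v-ATPase and 71.9 TPM for NADPH supply.

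NOX2 genes are also abundant in neutrophils, macrophages and other myeloid cells, and in a sorted bulk sample more cells of a type and more RNA per cell cannot be told apart. Of 12 neutrophil markers, 7 had counts, with a summed level of 50.6 CPM. The highest were *S100a8* at 55.0 TPM, *S100a9* at 47.9 TPM and *Csf3r* at 15.4 TPM, while *Ly6g*, *Mpo*, *Elane*, *Retnlg* and *Mmp8* were listed at 0. All 13 macrophage and monocyte markers had counts, with a summed level of 2122 CPM. The highest was *Ly6c2* at 1130 TPM, a gene that pDCs also express, followed by *Cd68* at 616 TPM, *Lyz2* at 410 TPM, *Fcgr1* at 181 TPM, *Spic* at 69.5 TPM and *C1qb* at 62.3 TPM. The other 7 lay between 1.03 TPM for *Mertk* and 23.8 TPM for *C1qa*, with *Csf1r* at 22.1 TPM and *Adgre1* at 20.1 TPM. Of 7 markers of conventional DCs, 6 had counts, with a summed level of 1958.5 CPM. They were *Ccl22* at 1507 TPM, *Fscn1* at 370 TPM, *Clec9a* at 58.4 TPM, *Zbtb46* at 32.3 TPM, *Clec10a* at 2.11 TPM and *Xcr1* at 1.00 TPM, and *Cd209a* was listed at 0. Most of the sum came from *Ccl22* at 1347 CPM and *Fscn1* at 428 CPM. Whether R848 raised these genes was not tested. B cell markers had counts for 4 of 7 genes, with a summed level of 10.4 CPM, *Cd79b* the highest at 6.71 TPM and *Pax5*, *Cr2* and *Fcer2a* listed at 0. T and NK cell markers had counts for 2 of 8 genes, *Cd8a* at 237 TPM and *Cd4* at 12.5 TPM, both of which mouse DCs can express, with a summed level of 351 CPM and *Cd3e*, *Cd3d*, *Cd3g*, *Bcl11b*, *Ncr1* and *Klrb1c* listed at 0. The part of any macrophages, monocytes and conventional DCs that passed the gate in the levels of the NOX2 genes was not tested.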

How the data were processed

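mRNA libraries were made from 9 samples of sorted splenic pDCs and sequenced as paired-end reads, and 1 library, A/A replicate 1, was analysed here. The authors deposited 1 normalized signal per gene, and its unit is not stated. The submitters' processing notes name HISAT2, StringTie and the builds mm8 and mm10, and the coordinates in the table are those of GRCm38. Versions, annotation and the use of strand were not given in the sources used here. The deposited length of a gene was its genomic span in 100% of genes and was not used.

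Counts were recovered by dividing by the smallest step (size factor 0.839). GENCODE M21 held 99.7% of the gene identifiers, 95.2% of them at the same coordinates. CPM used all 31408298 counts, and intervals used 7852075 read pairs, taking 4 units as 1 pair, a choice made after the data were seen. TPM used the union of annotated exons. Ratios have exact (Clopper-Pearson) intervals. Percentiles were taken among genes with counts, with ties at their midpoint. The alternatives were the length of the longest transcript, the coding length, exon bases outside the exons of other genes, no length correction, other sets of genes for percentiles and medians, a pseudocount of 0.1 in place of 1 for log2 levels and, added after the data were seen, 1 unit as 1 read and the non-overlapped length scaled by the total of the main setting. Proteins were translated from GENCODE M21 coding sequences and aligned globally with BLOSUM62. Recovery of counts was tested on simulated libraries. The scripts ran in Python 3.11.15 with matplotlib 3.10.9, Biopython 1.88, pandas 2.3.3, scipy 1.17.1 and numpy 2.4.6.

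Comparisons of genotypes were not run, since they need libraries of more than 1 genotype. The members and lists were chosen with earlier results of these data known. The genes named are the 9 genes, the 5 highest and 3 lowest of each other pathway list and its genes listed at 0, genes that overlap a member on the opposite strand, and *Bst2*, *Siglech*, *Itgax*, *Tlr7*, *Tlr9* and *Actb*. The other oxidases and marker genes named, and the Y-linked genes and *Xist*, come from lists or were chosen after their values were seen. *Cybc1* is listed in the table under an older symbol and was matched by identifier. An item of the planned lists is not reported here, and list values were computed without it.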

Additional observations from a re-analysis of the deposited data

How the results depend on the processing

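All 4 length settings (main, longest transcript, coding, non-overlapped) put *Cyba* highest and *Ncf4* lowest of the 6 NOX2 genes, and each alternative kept the order of 14 of 15 pairs. The exception was *Rac2* and *Ncf1* with the longest transcript and non-overlapped bases, and *Rac2* and *Cybb* with coding length. Without length correction 13 of 15 pairs kept it, and *Cybb* to *Cyba*, with exons of 5.81 kb and 1.04 kb, was reversed at 1.53. The other pair was *Rac2* and *Ncf1*.

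With the longest transcript, *Cybb* to *Cyba* was 0.240, *Ncf1* to *Cybb* 0.674, *Rac2* to *Rac1* 3.68 and the summed NOX2 to other oxidase ratio, 1519 in the main setting, 1596. With coding length they were 0.517, 0.561, 2.95 and 2051, and *Ncf1* to *Ncf4* was 19.0. With non-overlapped bases *Ncf1* to *Cybb* was 0.730, *Ncf1* to *Ncf4* 14.5, *Rac2* to *Rac1* 1.89 and the summed ratio 956. Without length correction *Ncf1* to *Cybb* was 0.409, *Ncf1* to *Ncf4* 23.3, *Rac2* to *Rac1* 2.69 and the summed ratio 1254. These shifts follow from the lengths.

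Of the 9 oxidase genes with counts (the 6 NOX2 genes, *Nox1*, *Noxo1* and *Duoxa2*), 4 left their counting interval with the longest transcript, 7 with coding length and 7 with non-overlapped bases. Over all 9, the levels in TPM were 0.801 to 1.12, 0.619 to 2.65 and 0.616 to 2.08 times the main value in these settings, with *Duoxa2* the lowest in the former pair. The last setting keeps all counts of a gene and shortens only its length, so before scaling it can only raise a gene with overlaps. It does not remove counts that may come from the opposite strand. This setting also changes the sum to which TPM are scaled. With the total of the main setting kept, a comparison added after these values were seen, 3 of 9 left their interval, all 9 were at 1.0 to 3.38 times the main value, and *Noxo1* was the most changed at 2.88 TPM. The percentile of *Nox1* was 29.6 among genes with at least 10 counts and 28.3 among protein-coding genes, that of *Ncf4* 85.4 and 83.9, and that of *Rac1* 95.2 and 94.8. For *Noxo1* it went from 22.4 to 11.0 and 14.3, and for *Duoxa2* from 23.7 to 12.0 and 14.9. With 1 unit as 1 read, the half-width of the *Ncf1* interval went from 23.0 to 11.5 CPM. No paired analysis was possible because 1 library alone was used. At 31 and 18 counts the depth limits the levels of *Noxo1* and *Duoxa2*.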
